A study of Mus musculus with 2 samples.

Results

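The YAP and TEAD pathway was followed in mouse skin through 10 genes chosen by name from the 19059 genes counted in each library. They comprised the secreted target genes Ccn1 and Ccn2, the intracellular target genes Ankrd1, Amotl1, Amotl2, Ajuba and Lats2, the coactivator genes Yap1 and Wwtr1, and the DNA-binding partner gene Tead1. All 10 had probes in the assay and counts in at least 1 cell group.

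Dorsal skin was sampled with a 6 mm punch in 1 wildtype mouse of the C57BL/6J strain and in 1 Eppk1-/- mouse, whose allele had been backcrossed to that strain. Eppk1 encodes epiplakin, a keratin-binding protein of the plakin family, and the knockout is not limited to a cell type. Neither mouse was treated. Age and sex are not given in the sources used here, and both libraries were read out by hybridisation of probe pairs to fixed cells (10x Genomics Flex), counted as unique molecular identifiers (UMIs).

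YAP (Yap1) and TAZ (Wwtr1) are transcriptional coactivators that cannot bind DNA and act through TEAD factors such as Tead1. The Hippo kinases, among them Lats2, phosphorylate YAP and TAZ and keep them in the cytoplasm, whereas stretch, spreading and a stiff matrix favour their entry into the nucleus. In skin the pathway is known for its part in basal cell growth and in hair follicle stem cells, which sit in the bulge of the follicle, and several of its targets, including Lats2, Amotl2 and Ajuba, act back on the pathway itself.

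TEAD factors recognise the core CATTCC, read as GGAATG on the opposite strand. Windows of 250 bases before the RefSeq gene start (GRCm38.p6), called promoter windows here, were at hand for 8 of the 10 genes, and 6 of those 8 genes held the core on either strand. For comparison, 12.6% of 32851 promoter windows of this length held it, a share of windows and not of genes. Lats2 and Wwtr1 had 2 windows each, and the core was in both of Wwtr1 and in neither of Lats2. The windows of Ccn1 and Ajuba, which contain no annotated exon, are shown because they carry the core in a secreted and an intracellular target, with the core in capitals, 5′ to 3′ along each gene.

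Ccn1 (chr3:145649986-145650235, minus strand): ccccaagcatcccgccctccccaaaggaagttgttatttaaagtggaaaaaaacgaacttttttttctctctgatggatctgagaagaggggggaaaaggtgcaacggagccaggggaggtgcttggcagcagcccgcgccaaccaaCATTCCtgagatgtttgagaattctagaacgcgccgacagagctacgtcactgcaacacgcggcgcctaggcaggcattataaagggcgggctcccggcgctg
Ajuba (chr14:54577662-54577911, minus strand): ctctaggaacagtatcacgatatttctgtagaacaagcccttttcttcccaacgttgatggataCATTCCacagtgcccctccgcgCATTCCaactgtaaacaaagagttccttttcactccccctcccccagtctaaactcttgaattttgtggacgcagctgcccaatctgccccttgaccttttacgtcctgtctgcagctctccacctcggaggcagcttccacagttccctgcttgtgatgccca

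In the remaining genes with a match the 30 bases around each core are given, since annotated exons overlap the Ankrd1, Amotl2 and Yap1 windows. The stretches of Ankrd1 and Amotl2 lie wholly within annotated exons, and the windows of Ankrd1, Amotl1, Amotl2 and Lats2 lie inside the gene as GENCODE draws it, whose start differs from that of RefSeq. Ankrd1 and Ajuba each held 2 matches.

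Ankrd1 (chr19:36120037-36120066, minus strand): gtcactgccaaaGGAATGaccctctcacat
Ankrd1 (chr19:36119950-36119979, minus strand): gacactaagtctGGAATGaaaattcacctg
Amotl2 (chr9:102717727-102717756, plus strand): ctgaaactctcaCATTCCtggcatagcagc
Yap1 (chr9:8004720-8004749, minus strand): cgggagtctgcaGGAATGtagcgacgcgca
Wwtr1 (chr3:57576029-57576058, minus strand): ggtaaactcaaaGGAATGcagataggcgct

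Amotl1 and Lats2 held no match within 250 bases, and no window was at hand for Ccn2 and Tead1. A match describes the letters of the window and not a bound site.

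The wildtype library held 9179 cells and 77638793 UMIs, and the Eppk1-/- library 8811 cells and 65118304 UMIs. After filtering, 8875 and 8617 cells remained, with medians of 4963 and 5006 UMIs per cell. Eppk1 itself reached 2968 CPM (a gene's share of all UMIs of a cell group, in ppm) in keratinocytes of the wildtype library, and 786 CPM in those of the knockout library (log2 ratio -1.92). The knockout library was therefore lower but not empty for its targeted gene, and whether its probes lie in the deleted part is not given in the sources used here. The study's methods name a workflow in which samples are pooled, and 1211 droplet barcodes were shared by the libraries.

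Cell groups were named from their marker genes, and a name such as bulge stands for bulge-like cells. Within each group the UMIs of a gene were summed over all cells of a library, and differences are given as log2 of the Eppk1-/- over the wildtype level, with exact 95% intervals that cover counting error only. A gene was counted as lower or higher when this log2 ratio reached 0.5 in size and the group held at least 50 UMIs of it over both libraries. With 1 mouse per genotype no test of a genotype difference exists, no p-value is given, and the spread between mice is unknown. Probes of different genes can differ in efficiency, so levels are compared between cell groups for 1 gene and not between genes. Where a pair of values is given, the wildtype value comes first.

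Ccn2 showed the largest difference of the 10 genes in keratinocytes. Across all keratinocytes it was at 294 CPM (288 to 299.6, 10448 UMIs) in the wildtype, against 90.7 CPM (86.9 to 94.6, 2173 UMIs) in the Eppk1-/- library, a 3.24-fold lower level (log2 ratio -1.70, -1.76 to -1.63). Of the 9 members measured there, Ccn2 alone was counted as lower and 0 were higher, beside 5.04% of all 11572 genes lower and 2.46% higher. The members' median log2 ratio was -0.13, and that of all genes was -0.02. Ccn1, Ccn2 and Amotl2 were among the genes that the study picked from these same libraries, so their direction here is not independent evidence.

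Ccn2 (ENSMUSG00000019997, chr10:24595442-24598683 on the plus strand of GRCm38) encodes connective tissue growth factor, a secreted matrix-associated protein and a standard readout of YAP activity. Its keratinocyte signal came mostly from the bulge and germ group, which held 69.6% of the wildtype and 59.7% of the Eppk1-/- keratinocyte UMIs of Ccn2. In this group Ccn2 stood at 2869.7 CPM (2804 to 2936) in the wildtype, against 973 CPM (920.5 to 1027) in the Eppk1-/- library, a 2.95-fold lower level (log2 ratio -1.56, -1.65 to -1.48). The bulge was the highest of the 14 named groups for Ccn2 in both libraries.

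**Figure D1:**
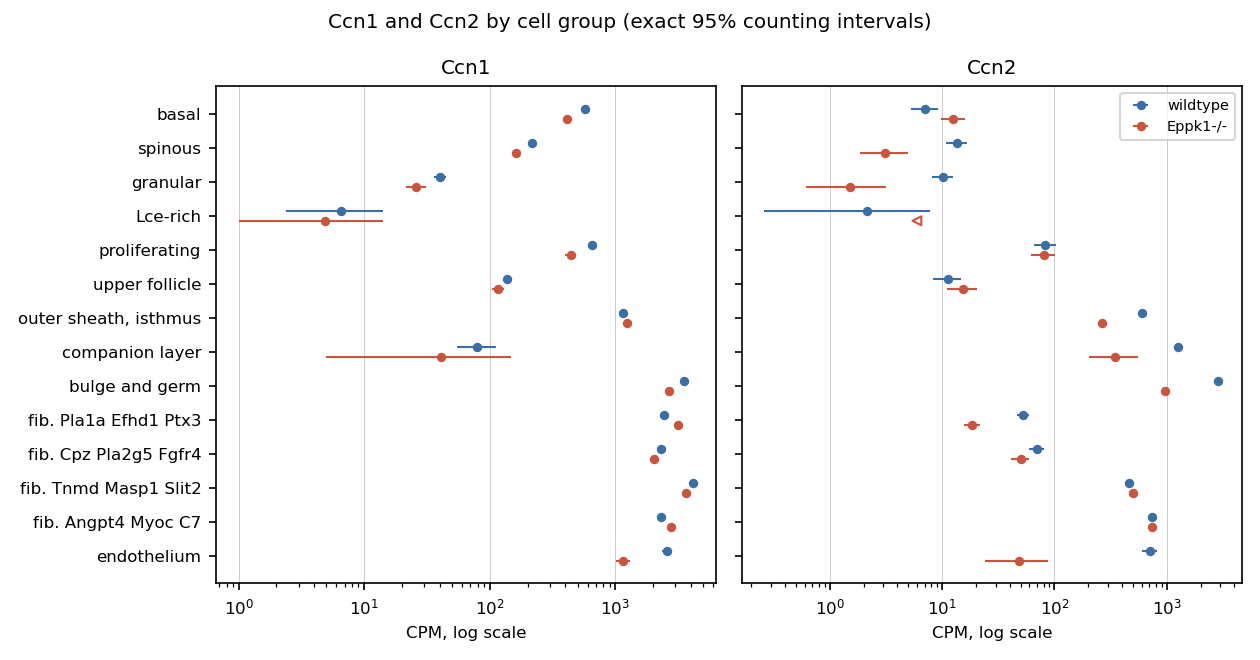
Levels of Ccn1 and Ccn2 in CPM (log scale) in 14 cell groups of the wildtype (blue) and Eppk1-/- (red) libraries, with exact 95% counting intervals; an open triangle marks the upper limit of a group without a UMI. Ccn2 is highest in bulge and germ cells, where the wildtype point (2869.7 CPM) lies right of the Eppk1-/- point (973 CPM), while the Angpt4 and Tnmd fibroblast groups have nearly the same Ccn2 level in both libraries.

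The bulge and germ group was made up of 2 sub-clusters, and Ccn2 was lower in each. In cells led by Krt24, Angptl7 and Lgr5, genes of the quiescent bulge, Ccn2 was at 4218 CPM in 430 wildtype cells, against 1508 CPM in 216 Eppk1-/- cells (log2 ratio -1.48, -1.57 to -1.40). In cells led by Fgf18, Ramp1 and Sncg it was far less abundant, with 259 CPM over 244 wildtype cells, against 89.4 CPM over 153 Eppk1-/- cells (log2 ratio -1.52, -2.03 to -1.07). In the latter 1 cell held 27.2% of the wildtype and 33.3% of the Eppk1-/- UMIs, and 15.6% and 10.0% of its thinned cells had a Ccn2 UMI. The intervals of the ratios overlapped, although the levels lay far apart. Ccn2 itself was not used to form the clusters, although it was among the leading genes of the Krt24 cells.

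The difference was present in the middle of the distribution of cells. In the Krt24 cells the median was 38.5 Ccn2 UMIs per 10000 UMIs in the wildtype, against 4.08 in the Eppk1-/- library, and the upper quartiles were 70.4 and 23.6. After thinning every cell to 2000 UMIs, 83.5% of wildtype Krt24 cells (79.1 to 87.2) and 56.5% of Eppk1-/- Krt24 cells (48.7 to 64.0) had a Ccn2 UMI. Across the whole bulge and germ group these shares were 58.6% and 38.2%, and without thinning 61.1% and 40.1%. T and NK cells, which are not known to make Ccn2, were used as the level of stray RNA. After the same thinning 6 of 94 wildtype (6.38%) and 3 of 69 Eppk1-/- cells (4.35%) had a Ccn2 UMI, and without it 5.33% and 1.51%. Most of their Ccn2 UMIs were not spread over cells, as 1 cell held 79 of 123 in the wildtype and 43 of 45 in the Eppk1-/- library. Those 2 cells also held 69 and 80 UMIs of bulge markers, and their nature was not tested. The median depths of all T and NK cells were 1850 and 1712 UMIs, against 3078 and 2991 in the bulge. The cell with most Ccn2 UMIs carried 1.21% of the wildtype and 5.86% of the Eppk1-/- bulge total, and without it the log2 ratio was -1.63.

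**Figure D2:**
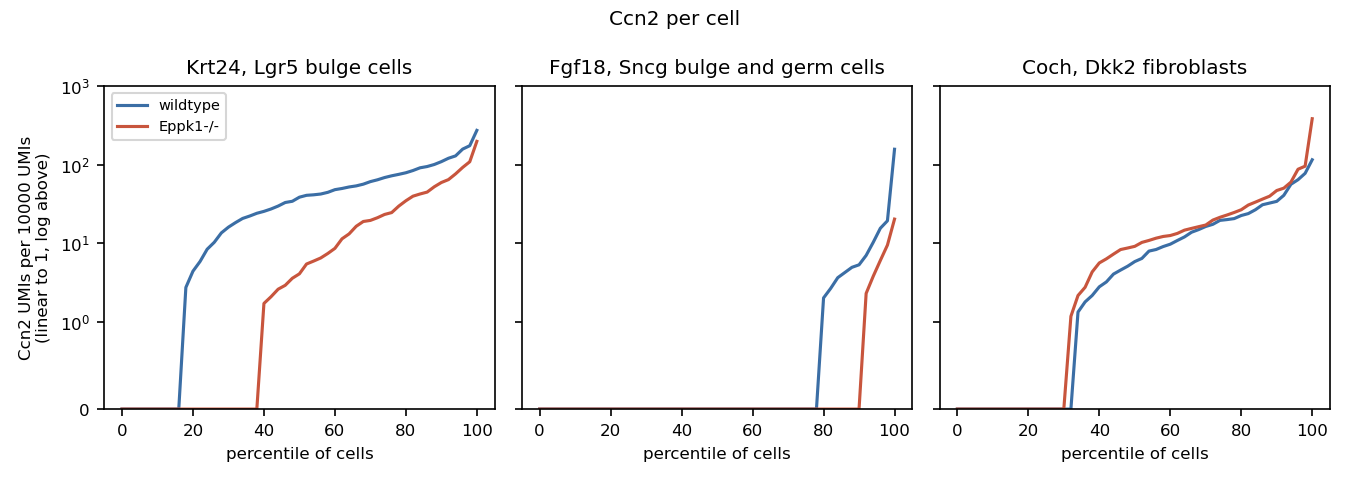
Ccn2 UMIs per 10000 UMIs of a cell (linear to 1, log above) against the percentile of cells, for the wildtype (blue) and Eppk1-/- (red) libraries in 2 bulge and germ sub-clusters and in Coch and Dkk2 fibroblasts. In the Krt24 and Lgr5 cells the wildtype curve is at or above the Eppk1-/- curve at every percentile, with medians of 38.5 and 4.08, while in the Coch and Dkk2 fibroblasts the Eppk1-/- median is 9.11 and the wildtype median 5.83.

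The bulge and germ group formed 12.4% of wildtype keratinocytes (674 of 5426) and 9.25% of Eppk1-/- keratinocytes (369 of 3988). Weighting the stages by their wildtype shares of UMIs, rather than of cells, gave a Ccn2 log2 ratio of -1.43 over all keratinocytes. The 9 bulge markers used to name the group, among them Cd34, Lgr5 and Sox9, were each found in over 25% of its cells and had log2 ratios from -0.05 to 0.39. Genes induced by glucocorticoids also differed in these cells: 6 of 14 were lower and 0 higher, beside 6.52% and 5.19% of all genes there, with a summed level of 12207 CPM in the wildtype, against 9522 CPM in the Eppk1-/- library. The summed level of 20 early genes of dissociation was 67093 and 61577 CPM. Their part in the Ccn2 difference was not tested. Leaving out all cells of shared droplets gave -1.61 for Ccn2 in the bulge and -1.72 over all keratinocytes.

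Outer sheath, isthmus and companion cells had less Ccn2 than the bulge and the same direction. The upper follicle did not share this direction, with 50 Ccn2 UMIs of 4445587 in the wildtype, against 45 of 2959482 in the Eppk1-/- library. Those UMIs lay in 17 and 5 cells. In the outer sheath and isthmus group Ccn2 was at 607 CPM (583 to 633) in the wildtype, against 265 CPM (245 to 286) in the Eppk1-/- library (log2 ratio -1.20, -1.33 to -1.07). Cells led by Pthlh and Aspn carried most of this, at 1651 and 877 CPM (log2 ratio -0.91), while cells led by Ccl2 and Fst were at 67.1 and 28.6 CPM (log2 ratio -1.22). The Pthlh and Aspn cells were 322 of 905 wildtype and 169 of 622 Eppk1-/- cells of the group, so the pooled ratio also reflects these shares. In the companion layer, the Krt75 cells between the sheaths of the follicle, Ccn2 was at 1256 CPM in 61 wildtype cells, against 346 CPM in 12 Eppk1-/- cells, the latter from 17 UMIs.

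In interfollicular epidermis and the upper follicle Ccn2 was close to the stray level, and its ratios there rest on few cells. After thinning, 0.34% to 5.69% of basal, spinous, granular, upper follicle and proliferating cells had a Ccn2 UMI, no more than in wildtype T and NK cells. Without thinning, T and NK cells were at 5.33% and 1.51%, and proliferating cells lay above both, at 9.77% and 6.25%. Proliferating cells held 78 Ccn2 UMIs of 944865 in the wildtype, against 66 of 823069 in the Eppk1-/- library, in 13 and 8 cells. Proliferating cells were deeper than T and NK cells, with medians of 6765 and 6096.5 UMIs, against 1850 and 1712. Whether their Ccn2 lies above background cannot be told from these shares. The unthinned basal, spinous, granular and upper follicle shares lay below those of T and NK cells in each library and are read as background. Basal cells held 51 wildtype and 67 Eppk1-/- UMIs, a log2 ratio of 0.82, but 60 of the 67 lay in 1 cell of a shared droplet, and without the top cell of each library the ratio was -2.04. Spinous cells were at 13.5 and 3.13 CPM (log2 ratio -2.07, and -0.65 after thinning), and granular cells at 10.1 and 1.53 CPM, with 53 of the 87 wildtype granular UMIs in 1 cell. At a higher clustering resolution the granular ratio turned to 0.52.

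Ccn1 (ENSMUSG00000028195, chr3:145646976-145649981 on the minus strand) encodes a secreted protein of the same family, also known as CYR61, that binds integrins. It was detected far more widely than Ccn2. Its highest group was the Tnmd, Masp1 and Slit2 fibroblasts, at 4121 CPM in the wildtype, against 3625 CPM in the Eppk1-/- library, and bulge and germ cells came next in the wildtype (3512 CPM) but in the Eppk1-/- library, at 2687 CPM, lay below the Pla1a fibroblasts at 3135 CPM. In the Eppk1-/- library the bulge level overlapped that of the Angpt4 fibroblasts within counting error. Along interfollicular differentiation Ccn1 declined from basal (570.1 and 411 CPM) through spinous (218 and 161 CPM) to granular cells (40.3 and 25.8 CPM) in both libraries.

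Across keratinocytes Ccn1 was at 576 CPM (568 to 584) in the wildtype, against 442 CPM (433 to 450.1) in the Eppk1-/- library, a log2 ratio of -0.38 (-0.42 to -0.35) that did not reach the size rule. Basal (-0.47), spinous (-0.44), upper follicle (-0.25) and bulge cells (-0.39) had negative ratios inside the size rule. Without the top cell of each library the spinous ratio was -0.62, past the size rule, as 1 Eppk1-/- cell held 165 UMIs. The basal and bulge ratios were then -0.47 and -0.43. Granular cells had -0.64 and proliferating cells -0.57, both past the size rule. In T and NK cells 18.1% of wildtype and 5.80% of Eppk1-/- cells held a Ccn1 UMI after thinning, so Ccn1 in a cell type not known for it also differed between libraries, and its part in these ratios was not tested. The bulge shares were 68.9% and 55.7%. Outer sheath and isthmus cells were the exception, at 1158 and 1228 CPM (log2 ratio 0.08, 0.02 to 0.15). Without the top cell of each library this ratio was 0.06, with an interval that included 0 (-0.01 to 0.12). The Pthlh and Aspn cells of this group were at 1607 and 2142 CPM (log2 ratio 0.42), the same cells in which Ccn2 was lower. Ccn1 and Ccn2 thus differed in direction within 1 sub-cluster.

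In fibroblasts as a whole Ccn1 and Ccn2 were close between libraries. Ccn1 was at 2756 and 2935 CPM (log2 ratio 0.09) and Ccn2 at 251 and 222 CPM (log2 ratio -0.18, -0.25 to -0.11). Of the 10 members measured, 0 were counted as lower and 0 as higher, beside 6.05% of 11386 genes lower and 9.73% higher. The members' median was -0.03, against 0.07 for all genes. Fibroblasts held 20.3% of all Ccn2 UMIs of the wildtype and 58.4% of those of the Eppk1-/- library, and formed 18.9% and 30.6% of the cells.

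Within fibroblasts Ccn2 depended on the group. It was highest in the Angpt4, Myoc and C7 fibroblasts, at 736 CPM (696 to 777) in the wildtype, against 742 CPM (707 to 778) in the Eppk1-/- library (log2 ratio 0.01, -0.09 to 0.12). After thinning, 48.4% and 50.5% of these cells had a Ccn2 UMI. The Tnmd, Masp1 and Slit2 group was at 460.2 and 498 CPM (log2 ratio 0.12), and its sub-cluster led by Coch and Dkk2 reached 1427 and 1839 CPM (log2 ratio 0.37, 0.24 to 0.49). In the Angpt4 and Tnmd groups Ccn2 was therefore abundant without a lower level in the Eppk1-/- library. The Cpz, Pla2g5 and Fgfr4 group had less, with 173 Ccn2 UMIs of 2486400 in the wildtype, against 119 of 2380353 in the Eppk1-/- library. Its ratio and that of the Pla1a group were below 0 with intervals below 0, but only the latter reached the size rule.

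The Pla1a, Efhd1 and Ptx3 fibroblasts stood apart. Of the 10 members, 1 was counted as lower (Ccn2) and 3 as higher (Amotl1, Amotl2 and Ajuba), beside 10.6% of 10096 genes lower and 16.8% higher, so that this group had large shares of genes past the size rule in general. Ccn2 was at 52.7 and 18.4 CPM (log2 ratio -1.51, -1.82 to -1.22), with 6.71% and 1.90% of thinned cells holding a UMI, near the stray level at that depth. Without thinning the shares were 15.2% and 4.80%, above the 5.33% and 1.51% of T and NK cells. The Pla1a cells were deeper, with medians of 9406 and 7009 UMIs, against 1850 and 1712 in T and NK cells. Amotl2 was at 215 and 351 CPM (log2 ratio 0.71, 0.61 to 0.81) and Amotl1 at 71.4 and 108 CPM (log2 ratio 0.60, 0.42 to 0.78). Ajuba rested on 13 and 38 UMIs.

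This group joined 2 sub-clusters in different proportions. Cells led by Smpd3 and Il33 numbered 257 in the wildtype, against 840 in the Eppk1-/- library, whereas cells led by Il1rl1, Cxcl2 and Ptx3 numbered 256 and 265. Amotl2 was at 341 and 414 CPM in the former (log2 ratio 0.28) and at 106 and 178 CPM in the latter (log2 ratio 0.76). Ccn2 was lower in both, with log2 ratios of -1.55 and -2.40. For Amotl1 the ratio turned to -0.55 when the libraries were clustered without integration. Median-of-ratios scaling shifted all log2 ratios of this group by -0.10.

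**Figure D3:**
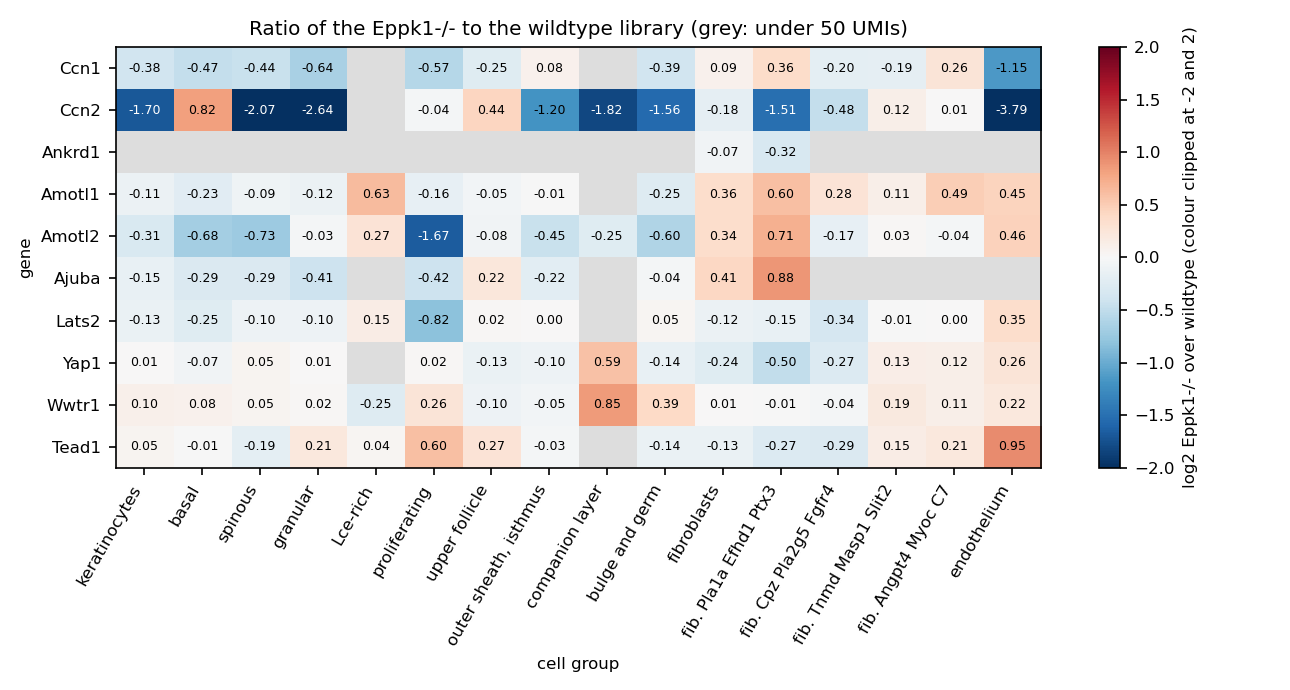
Log2 ratio of the Eppk1-/- over the wildtype library for the 10 genes (vertical) in all keratinocytes, all fibroblasts, 13 of their groups and endothelium (horizontal), with the value in each field, blue for lower and red for higher and grey for under 50 UMIs. The Ccn2 field is blue in most follicle groups (-1.20 to -1.82) and near white in the Tnmd and Angpt4 fibroblasts, whereas the fields of Yap1, Wwtr1 and Tead1 are pale in most keratinocyte groups.

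Amotl2 and Amotl1 encode angiomotin-like proteins that bind YAP at cell junctions and restrain it. Amotl2 showed the largest ratios of the intracellular targets in keratinocytes, and they differed by stage. It was at 37.6 CPM (33.3 to 42.4) in wildtype, against 23.5 CPM (19.6 to 28.0) in Eppk1-/- basal cells, a log2 ratio of -0.68, and at 112 and 67.4 CPM in spinous cells (log2 ratio -0.73, -0.92 to -0.56). Bulge and germ cells were at 131 and 86.2 CPM (log2 ratio -0.60, -0.92 to -0.29), and proliferating cells at 70.9 and 21.9 CPM, from 67 and 18 UMIs.

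Amotl2 increased along epidermal differentiation in both libraries, and the late stages did not share the lower level. Granular cells were at 232 and 227 CPM (log2 ratio -0.03) and the Lce-rich cells, the last named stage of the epidermis, at 658 and 794 CPM (log2 ratio 0.27). Within the basal group, cells led by Tnfsf18, Ch25h and Thbs1 had 77.0 and 36.2 CPM (log2 ratio -1.08), while cells led by Has3 and Adam8 had 11.3 and 14.8 CPM (log2 ratio 0.38). Over all keratinocytes the ratio was -0.31 and did not reach the size rule.

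Amotl1 was spread more evenly, from 71.4 to 194 CPM over the named groups of the wildtype library. In keratinocytes it was at 166 and 153 CPM (log2 ratio -0.11), with stage values from -0.25 in bulge cells to 0.63 in Lce-rich cells, the latter from 137 and 142 UMIs. The 4 fibroblast groups had ratios from 0.11 to 0.60.

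Ajuba encodes a LIM-domain scaffold protein of cell junctions that inhibits Lats kinases. Its level was highest in proliferating (249.8 and 187 CPM), outer sheath and isthmus (221 and 189.9 CPM) and basal cells (198 and 162 CPM). It declined through spinous (119 and 97.4 CPM) to granular cells (35.2 and 26.4 CPM), and no fibroblast group exceeded 11.6 CPM in either library. Its keratinocyte log2 ratio was -0.15, and 6 of 7 measured stages were below 0, none of them past the size rule.

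Lats2, a Hippo kinase whose transcript is itself raised by YAP, was at 43.5 and 39.8 CPM in keratinocytes (log2 ratio -0.13, -0.25 to -0.01). It was more abundant in fibroblasts, at 106 and 98.1 CPM, and of the 14 groups highest in endothelium, at 142 and 181 CPM. In endothelium 1 Eppk1-/- cell held 13 Lats2 UMIs, and without the top cell of each library the levels were 141 and 140 CPM. Bulge cells, in which Ccn2 was 2.95-fold lower, had Lats2 at 65.5 and 67.4 CPM (log2 ratio 0.05, -0.34 to 0.42).

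Ankrd1 encodes a stretch-responsive ankyrin repeat protein of muscle and vessel cells, and it was nearly absent from keratinocytes, with 3 wildtype UMIs and 0 Eppk1-/- UMIs, the latter allowing up to 0.125 CPM. Fibroblasts held 34 and 44 UMIs (2.77 and 2.65 CPM, log2 ratio -0.07). Endothelium had the highest level, at 61.6 and 92.9 CPM, but 19 of its 21 Eppk1-/- UMIs came from 1 cell. The gene could therefore not be compared in keratinocytes at this depth.

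The genes of the pathway itself showed little difference over all keratinocytes. Yap1 was at 293 CPM (287 to 298) in the wildtype, against 294 CPM (287 to 301) in the Eppk1-/- library, a log2 ratio of 0.01 (-0.04 to 0.05). Wwtr1, which encodes TAZ, was at 539 and 576 CPM (log2 ratio 0.10, 0.07 to 0.13), and Tead1 at 83.1 and 85.9 CPM (log2 ratio 0.05, -0.03 to 0.13). No bound of these 3 intervals lay further from 0 than 0.13 on the log2 scale.

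**Figure D4:**
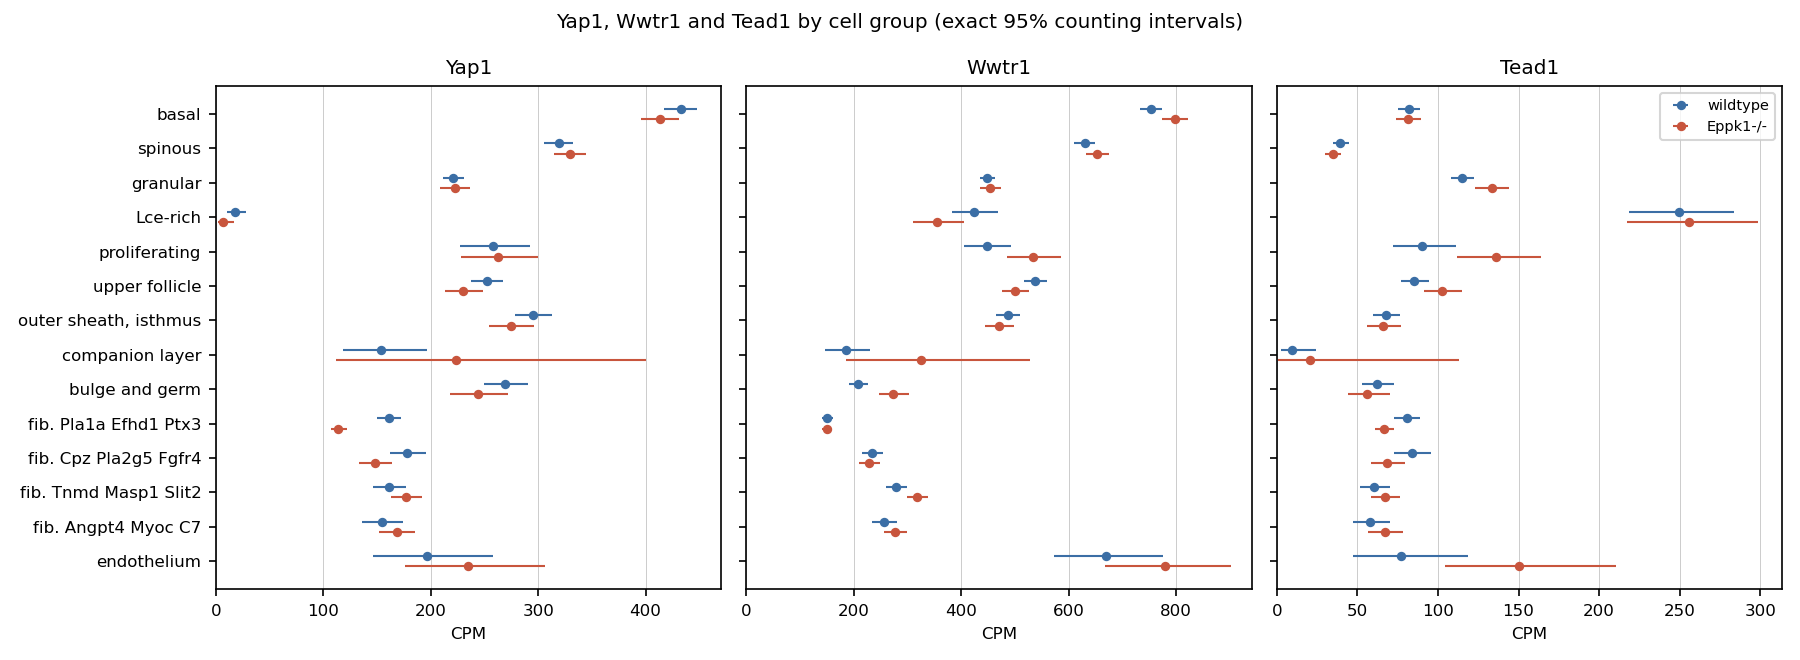
Levels of Yap1, Wwtr1 and Tead1 in CPM (linear scale) in 14 cell groups of the wildtype (blue) and Eppk1-/- (red) libraries, with exact 95% counting intervals. Yap1 and Wwtr1 peak in basal cells of both libraries (433 and 413 CPM, 754 and 798 CPM), Tead1 peaks in Lce-rich cells (249 and 256 CPM), and most pairs of points overlap.

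Each of the 3 genes had its own order across groups, and both libraries shared its upper end. Yap1 was highest in basal cells (433 and 413 CPM), followed by spinous cells (319 and 329.6 CPM), and lowest in Lce-rich cells (17.3 and 6.47 CPM). Wwtr1 was also highest in basal cells (754 and 798 CPM), where its interval overlapped that of endothelium (669 and 779 CPM). One Eppk1-/- endothelial cell held 44 Wwtr1 UMIs, and without the top cell of each library endothelium was at 648 and 675 CPM. Tead1 was at 81.8 and 81.2 CPM in basal and 39.5 and 34.6 CPM in spinous cells, and at 115 and 133 CPM in granular and 249 and 256 CPM in Lce-rich cells.

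Stage by stage, Yap1 had log2 ratios from -0.14 to 0.05 in the 7 keratinocyte stages with over 100 UMIs, and none of the coactivator genes reached the size rule in basal, spinous, granular, upper follicle, outer sheath or bulge cells. Proliferating cells had a Tead1 log2 ratio of 0.60 (0.18 to 1.02), with 136 CPM in the Eppk1-/- library. In the companion layer Yap1 was at 154 and 224 CPM (log2 ratio 0.59, -0.53 to 1.48) and Wwtr1 at 185 and 325 CPM (log2 ratio 0.85, -0.06 to 1.60), with 11 and 16 UMIs in the Eppk1-/- library. Bulge cells had Wwtr1 at 208 and 274 CPM (log2 ratio 0.39, 0.20 to 0.59), Yap1 at 269 and 244 CPM (log2 ratio -0.14) and Tead1 at 61.9 and 56.2 CPM (log2 ratio -0.14, -0.56 to 0.27). The direction of Wwtr1 in these cells was opposite to that of Ccn2. In Pla1a fibroblasts Yap1 was at 161 and 114 CPM, a log2 ratio of -0.50 that lay just inside the size rule, with -0.29 and -0.30 in its sub-clusters.

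By stage, the members were counted against the share of all genes in the same cells. In basal cells 1 of 9 was lower (Amotl2) and 1 higher (Ccn2), beside 3.64% and 4.38% of 8632 genes. In spinous cells 2 of 9 were lower (Ccn2 and Amotl2) and 0 higher, beside 4.22% and 2.79% of 8605 genes. Granular cells had 2 of 9 lower (Ccn1 and Ccn2) and 0 higher, beside 5.23% and 3.09% of 8475 genes. These counts include the Ccn2 values that rest on single cells. Lce-rich cells had 0 of 5 lower and 1 higher (Amotl1), beside 11.2% and 10.5% of 1590 genes. Proliferating cells had 3 of 9 lower (Ccn1, Amotl2 and Lats2) and 1 higher (Tead1), beside 8.8% and 4.16% of 5773 genes, with Lats2 at 43.4 and 24.3 CPM from 41 and 20 UMIs.

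In the upper follicle 0 of 9 members were lower and 0 higher, beside 4.38% and 3.88% of 8525 genes. In the outer sheath and isthmus 1 of 9 members was lower (Ccn2) and 0 higher, beside 6.34% and 3.26% of 8909 genes. In bulge and germ cells 2 of 9 were lower (Ccn2 and Amotl2) and 0 higher, beside 6.52% and 5.19% of 8422 genes. In the small companion layer 1 of 4 was lower (Ccn2) and 2 were higher (Yap1 and Wwtr1), beside 18.9% and 18% of 1816 genes. The members' median log2 ratio in the bulge was -0.14, and that of all genes was 0.01.

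Endothelium was small, with 106 wildtype and 57 Eppk1-/- cells at medians of 1058.5 and 2010.0 UMIs, and 51 and 8 of these cells came from shared droplets. Of 8 members measured, 2 were lower (Ccn1 and Ccn2) and 1 higher (Tead1), beside 14.8% and 17.1% of 2389 genes. Ccn2 was at 704 CPM (183 UMIs) in the wildtype, against 48.7 CPM (11 UMIs) in the Eppk1-/- library, a log2 ratio of -3.79. However, 128 of the 183 UMIs lay in 1 cell, and without the top cell of each library the values were 224 and 35.6 CPM (log2 ratio -2.58, -3.94 to -1.58). That wildtype cell also held 291 UMIs of listed keratinocyte genes, 57 of bulge markers and 47 of fibroblast genes, beside 57 of endothelial genes. Its nature was not tested.

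Ccn1 in endothelium was at 2562 and 1155 CPM (log2 ratio -1.15, -1.36 to -0.94), and at -0.95 without the top cells. A median wildtype endothelial cell had 14.7 Ccn1 UMIs per 10000 UMIs, against 0 in the Eppk1-/- library. The 90th percentiles lay closer together, at 52.4 and 47.7. Without thinning, 75.5% and 43.9% of the cells held a Ccn1 UMI. The share of cells with 5 or more Ccn1 UMIs went the other way, at 16.04% and 24.56%. Median depths were 1058.5 and 2010.0 UMIs, so the medians of Ccn1 rest on few UMIs per cell. Tead1 was at 76.9 and 150.5 CPM from 20 and 34 UMIs. The 8 endothelial markers summed to 4213 and 4921 CPM, with log2 ratios from -0.39 to 0.60. Over both libraries together, 7 of them were found in over 25% of the cells. In the wildtype alone Tie1 (19.8%), Emcn (21.7%), Egfl7 (22.6%) and Tek (23.6%) were below 25%. In the Eppk1-/- library the lowest was Tek at 26.3%.

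The makeup of the endothelial group differed between libraries. RNA of 12 keratinocyte genes summed to 9969 CPM in the wildtype, against 3939 CPM in the Eppk1-/- group, with 0 of the 12 genes at 0 in either. The 7 pericyte and smooth muscle markers summed to 1100.4 and 2859 CPM, and the 5 lymphatic markers to 9969 and 6191 CPM, with Mmrn1 at 347 UMIs in the wildtype, against 0 in the Eppk1-/- group. Their part in the endothelial ratios was not tested.

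Other pathway genes were read from lists, which hold no members. Of 24 Hippo kinases and adaptors, all 24 were measured in keratinocytes and 0 were lower or higher, with a median log2 ratio of 0.05. Of all genes measured in keratinocytes, 5.04% were lower and 2.46% higher. The extremes were Wtip, a LIM-domain relative of Ajuba (-0.22), and the cadherin gene Dchs1 (0.37), which had only 1.07 and 1.38 CPM. The kinase gene Lats1 was at 67.5 and 66.5 CPM, and Nf2, an upstream activator of the kinases, at 63.9 and 68.5 CPM.

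Of 7 other TEAD genes and cofactors, 5 were measured in keratinocytes, beside 5.04% of all genes lower and 2.46% higher there. Of the 5, 1 (Tead2) was lower, at 2.67 and 1.79 CPM (log2 ratio -0.57, -1.13 to -0.04). Tead3 (149 and 147 CPM) and Tead4 (40.6 and 38.2 CPM) were close between libraries. In bulge cells Vgll4, a cofactor that competes with YAP for TEAD, was higher, at 217 and 343 CPM (log2 ratio 0.66, 0.48 to 0.84). It was the 1 gene of 4 measured there that reached the size rule, beside 6.52% of all bulge genes lower and 5.19% higher.

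Of 16 other genes known as YAP targets, 15 were measured in keratinocytes, with 1 lower, 1 higher and a median of 0.02, beside 5.04% and 2.46% of all genes. Rbms3, an RNA-binding protein gene, was lower (8.38 and 5.38 CPM, log2 ratio -0.64), and Ccdc80, a matrix protein gene abundant in fibroblasts, was higher (6.67 and 9.48 CPM, log2 ratio 0.51). F3, which encodes tissue factor, was at 394 and 282 CPM (log2 ratio -0.49) just inside the size rule, and Nt5e had a log2 ratio of -0.44. On the other side, also inside the size rule, Igfbp3 was at 6045 and 7309 CPM (log2 ratio 0.27) and Asap1 at 26.0 and 30.7 CPM (log2 ratio 0.24). In bulge cells 13 were measured, 1 was lower (Rbms3, 53.6 and 30.7 CPM, log2 ratio -0.79) and 0 were higher, beside 6.52% and 5.19% of all genes. Of these 13 genes 6 were below 0, and their median was 0.05. Crim1 (372 and 365 CPM) and Axl (135 and 130.4 CPM), 2 reported targets picked with their values in view, were near even in the bulge.

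**Figure D5:**
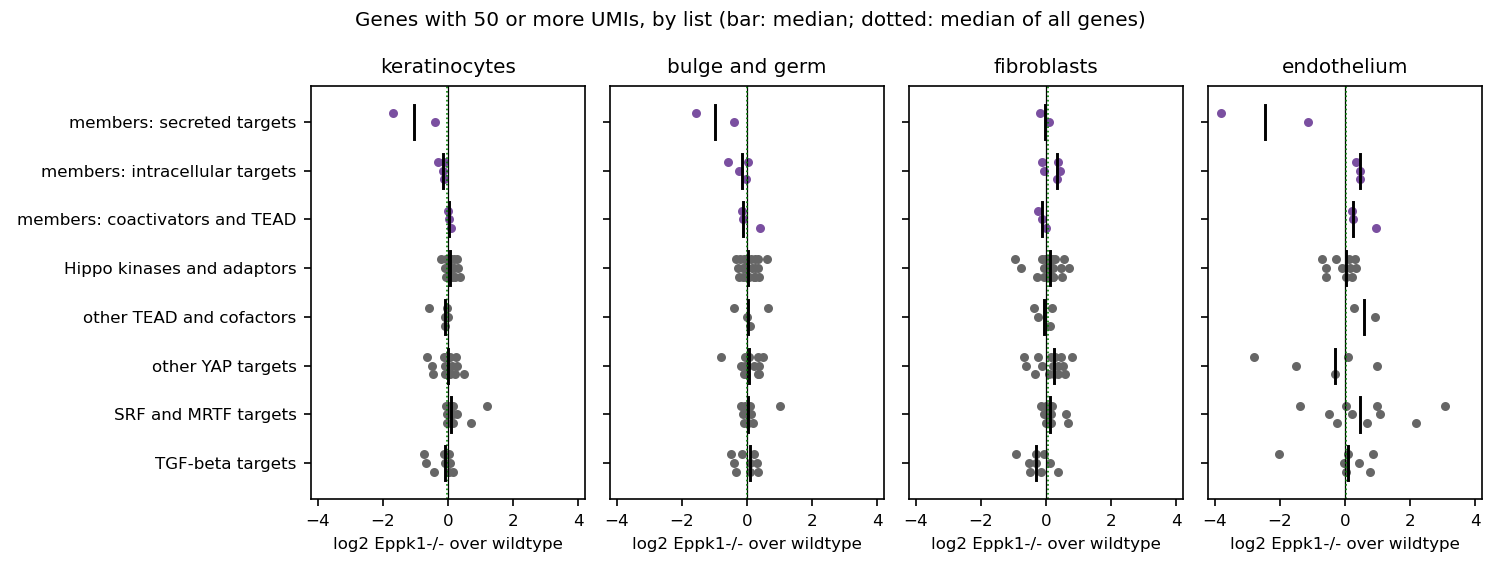
Log2 ratio of the Eppk1-/- over the wildtype library (horizontal) for each gene with at least 50 UMIs, by list (vertical), in keratinocytes, bulge and germ cells, fibroblasts and endothelium; members are purple, other genes grey, bars mark list medians and the dotted line the median of all genes. The secreted targets lie left of 0 in keratinocytes, bulge cells and endothelium, while the Hippo list centres near 0 (median 0.05 in keratinocytes).

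Fibroblasts gave a mixed picture for these lists, beside 6.05% of all genes lower and 9.73% higher. Of 23 Hippo genes measured, 2 were lower (among them Limd1, 239 and 124 CPM) and 2 higher (Fat4, 41.1 and 67.6 CPM, and Ptpn14). Of the 16 other targets, 2 were lower (F3, 330.2 and 209 CPM, and Ccdc80, 1334 and 863 CPM) and 3 higher (Dock5, Gadd45a and Tgfb2). In endothelium, where 14.8% of all genes were lower and 17.1% higher, 5 of the other targets were measured. Igfbp3 (3163 and 456 CPM) and Ccdc80 were lower and Axl (139 and 274 CPM) was higher.

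Lists of 2 further pathways that share targets with YAP were also counted, beside 5.04% of all keratinocyte genes lower and 2.46% higher. Of 13 SRF and MRTF target genes measured in keratinocytes, 2 were higher (Myl9, 2.90 and 6.60 CPM, and Fhl2, 2.59 and 4.26 CPM) and 0 lower, with a median of 0.10. Of 9 TGF-beta target genes, 2 were lower (among them Ltbp2, 13.4 and 8.01 CPM) and 0 higher, with a median of -0.09. In bulge cells none of the 9 TGF-beta targets reached the size rule, beside 6.52% of all genes lower and 5.19% higher.

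The genes whose levels followed those of Ccn1 and Ccn2 most closely were found over 40 points, the 20 cell groups of both libraries, among 11170 genes. For Ccn2 they were Pik3r1 (Pearson r of log2(CPM + 1) 0.82), S100a6 (0.80), Farp1 (0.80), Gli1 (0.80) and Capn2 (0.79). For Ccn1 they were Nfic (0.91), Serpinh1 (0.90), Zdhhc1 (0.90), Ugdh (0.89) and Hspg2 (0.89). Points of 1 library share its depth and its stray RNA, so these values describe likeness only.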

How the data were processed

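Dorsal skin cells of 1 wildtype and 1 Eppk1-/- mouse were profiled with the 10x Genomics Fixed RNA assay. The authors made the deposited UMI counts of each gene in each called cell with Cell Ranger 8.0.1 on mm10 and did not normalize them. Following the study's methods, cells were required to have between 200 and 45000 UMIs, between 100 and 7500 genes and no more than 10% of UMIs from mitochondrial genes, 13 of which were taken out afterwards. Cells were clustered in Seurat 5.3.0 under R 4.3.3 (log-normalization, 2000 variable genes, 50 principal components, RPCA integration, Louvain clustering). No resolution is given in the sources used here, and 0.5 was used. The members, the listed genes and Eppk1 were left out of the variable genes. Exceptions were the lists of keratinocyte, fibroblast, endothelial, and muscle and pericyte RNA, which were kept as markers and could shape the clusters. Keratinocytes and fibroblasts were clustered again on their own. A cluster could take a name if 25% or more of its cells held each of at least 3 markers of that name or, in the first clustering, of its cell type. First clusters went to the type with the largest share of its markers found. Sub-clusters went to the name with the highest mean standardized marker level, near ties going to the later list. A rule for mixed clusters and clusters with over 95% of cells from 1 library was set after the clusters were seen. Mixed keratinocyte (99 and 78 cells) and fibroblast sub-clusters (169 and 160 cells) were left out. SCTransform and MAST, which the study used, were not used here.

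The members and gene lists were chosen with earlier results of these data known. UMIs were summed per group and library and scaled to CPM with pandas 2.3.3, scipy 1.17.1 and numpy 2.4.6 in Python 3.11.15. Log2 ratios had 0.5 UMI added to each sum. Intervals are exact at 95% (Poisson for levels, conditional binomial for ratios, Clopper-Pearson for shares of cells), and a count of 0 allows up to 3 UMIs. UMIs remove PCR copies. Shares of cells were taken after thinning to 2000 UMIs. Scrublet (scanpy 1.11.5) called 0.0225% of wildtype and 2.52% of Eppk1-/- cells, too few in the wildtype to have worked, so its calls were not applied and the 5% of cells with the highest scores were left out as an alternative. Other alternatives were TMM scaling (edgeR 4.0.16), median-of-ratios scaling (DESeq2 1.42.0), a mean over cells, thinning, and stricter or no cell filters. A resolution of 1, no integration, removal of shared droplets and weighting by wildtype shares of UMIs were also used. Named list genes are the 3 highest and 3 lowest log2 ratios of a list in keratinocytes and in fibroblasts. Any other gene named was picked with its values in view. Some listed genes are not reported here by name. The computation was checked on simulated data. Promoter windows were matched by symbol to a RefSeq table, and exons were taken from GENCODE on GRCm38. No test between genotypes was made.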

Additional observations from a re-analysis of the deposited data

Results flagged for a closer look

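Ccn2 and Amotl2 were picked out because their log2 ratios were past 0.5 in opposite directions in different cell groups of the same 2 libraries. With 1 library per genotype the difference between groups was not tested. Ccn2 was lower in spinous (-2.07), granular (-2.64), outer sheath and isthmus (-1.20), companion layer (-1.82) and bulge and germ cells (-1.56), in Pla1a fibroblasts (-1.51) and in endothelium (-3.79), and higher in basal cells (0.82). The basal value is the sole one above 0.5, and it rests on 1 Eppk1-/- cell with 60 UMIs.

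Amotl2 was lower in basal (-0.68), spinous (-0.73), proliferating (-1.67) and bulge and germ cells (-0.60) and higher in Pla1a fibroblasts (0.71). Its proliferating value comes from 67 and 18 UMIs. Its Pla1a value is the sum of 2 sub-clusters with log2 ratios of 0.28 and 0.76 whose cell numbers differed between libraries, and it was 0.086 without integration. The spinous Amotl2 value was -0.31 without a cell filter and -0.46 at a resolution of 1.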

How the results depend on the processing

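No paired analysis was possible because each genotype has 1 library. Alternatives covered all keratinocytes, all fibroblasts, endothelium, Pla1a fibroblasts and basal, spinous, granular, outer sheath and isthmus, and bulge and germ cells. Values of the other groups, among them the Angpt4 and Tnmd fibroblasts, and of the sub-clusters were not recomputed under these alternatives. Over 915 values of members under alternatives, 841 kept the sign, 810 stayed within their counting interval and 4 of those past 0.5 with an interval off 0 turned: Ccn2 in granular cells at resolution 1 (0.52), Amotl1 in Pla1a fibroblasts without integration (-0.55), and Ccn2 in basal cells without shared droplets (-2.31) or the top cells (-2.04). Leaving out top cells and counting mixed sub-clusters were chosen after seeing the data. No granular cluster was found without a cell filter or without integration, nor a named endothelium in either. Among smaller values that changed sign, Lats2 in granular cells was 0.79 thinned and Wwtr1 in Pla1a fibroblasts 0.76 without integration. Ccn2 in spinous cells was -0.65 thinned and -0.71 without high Scrublet scores. Amotl2 was 0.086 in Pla1a fibroblasts without integration, and in spinous cells -0.31 without a filter, -0.46 at resolution 1 and -0.42 without integration. The causes of these changes were not tested.

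Ccn2 in keratinocytes was -1.83 after thinning and -1.43 by wildtype stage shares, and in the bulge -1.47 as a mean over cells. Ccn1 in keratinocytes was -0.51 as a mean over cells, -0.53 thinned, -0.44 without a filter, -0.32 without high Scrublet scores, -0.30 by stage shares and -0.44 with sebaceous cells. Ccn2 in fibroblasts was -0.25 with median-of-ratios scaling, -0.30 as a mean over cells, -0.30 thinned, -0.073 at resolution 1, -0.68 without integration, -0.051 by group shares and -0.36 with mixed sub-clusters. In endothelium, Ccn1 was -0.47 as a mean over cells and -1.42 at resolution 1, and Ccn2 -1.78 as a mean over cells and -2.58 without top cells.

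Members counted as lower in keratinocytes numbered 3 as a mean over cells, 2 thinned and 2 from 1 UMI, against 1. In the bulge 1 was lower at a size of 1, and 1 was higher without high Scrublet scores or shared droplets. In fibroblasts 1 was lower without integration or shared droplets, and 1 higher without a filter or shared droplets. In endothelium 1 was lower as a mean over cells, thinned or from 200 UMIs. There 0 were higher when thinned, without high Scrublet scores or top cells, from 200 UMIs or at a size of 1, and 2 at resolution 1, without shared droplets or from 1 UMI. Thinned to 1000 UMIs, 53.5% of wildtype and 30.03% of Eppk1-/- bulge cells had a Ccn2 UMI. The spread between mice is unknown.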

Other observations

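Sebaceous cells, which form no group of the report, numbered 154 in the wildtype library (median 6151 UMIs) and 133 in the knockout library (median 12888 UMIs). Of the 10 members, 9 were measured in them, and the share of all genes past the size rule was not counted there. Ccn1 was at 1052 and 398 CPM there (log2 ratio -1.40), Ajuba at 58.7 and 21.6 CPM (log2 ratio -1.43) and Tead1 at 43.7 and 10.8 CPM (log2 ratio -1.99). Ccn2, Amotl1 and Wwtr1 also reached the size rule as lower. Lats2 went the other way, at 32.9 and 70.7 CPM (log2 ratio 1.09). The median of all 7031 genes measured in these cells was -0.16. With Ccn2, 59 of 95 wildtype UMIs lay in 1 sebaceous cell of a shared droplet. The sebaceous values leave out an unnamed cluster of 0 wildtype and 57 Eppk1-/- cells. Cyp2g1, Serpina3b, Scd3 and Cidea were among the leading genes of both that cluster and the sebaceous cells.

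Lats2 was more abundant in T and NK cells, at 494 and 450.1 CPM, and in Langerhans and dendritic cells (343 and 362 CPM) than in endothelium (142 and 181 CPM). Yap1 was at 66.1 and 53.0 CPM in T and NK cells and Tead1 at 13.6 and 14.4 CPM. Amotl2 was higher in Eppk1-/- macrophages, at 25.5 and 43.2 CPM (log2 ratio 0.75, 0.29 to 1.26). Most members went the other way there, with 7 of the 9 measured below 0. Ccn2, Amotl1, Ajuba and Yap1 reached the size rule as lower. The share of all genes past the size rule was not counted in macrophages, so these counts have no comparison. The members' median in macrophages was -0.32, against -0.09 for all 8559 genes.

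A small fibroblast sub-cluster that took no name, led by Gdf10 and C7, held 30 wildtype and 119 Eppk1-/- cells. Its Ccn2 level was 421 and 68.9 CPM (log2 ratio -2.61, -3.15 to -2.08), from 74 and 52 UMIs, and its Ccn1 level was 848 and 1255 CPM (log2 ratio 0.56).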
